A study of Homo sapiens with 6 samples.

Results

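The miR-29 family was followed in a small RNA study of BEAS-2B, an immortalised human bronchial epithelial cell line. The family was taken by name: hsa-miR-29a-3p, hsa-miR-29b-3p, hsa-miR-29c-3p, hsa-miR-29a-5p, hsa-miR-29b-1-5p, hsa-miR-29b-2-5p and hsa-miR-29c-5p, 7 of the 1727 known mature miRNA names that the 6 libraries list. All 7 had counts in every library, and 7 of 7 passed the filter on low counts. The 3 control libraries came from BEAS-2B cells given the empty plasmid pcDNA3.1, and the 3 PRMT1 libraries from the same line given a PRMT1 expression plasmid (pcDNA-PRMT1), both for 48 h. PRMT1 is a protein arginine methyltransferase. The model is thus over-expression from a plasmid in 1 immortalised line; the labels do not give the delivery method or say whether replicates were separate cultures. The p-values therefore set differences only against the variation among these 6 samples, which could be technical. The tables hold no PRMT1 messenger RNA value, so the over-expression itself could not be checked here.

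A miRNA hairpin is cut into a duplex, of which one strand, the guide, is kept by an Argonaute protein and the other, the passenger, is mostly degraded. The guide finds messenger RNAs mainly through its seed, a short stretch near its 5′ end. In the miR-29 family the 3p arms are the usual guides. The family is known for repressing collagens and other matrix genes, and TGF-beta lowers it in fibrotic lung, kidney and heart. It also represses the DNA methyltransferases DNMT3A and DNMT3B.

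The mature sequences are shown first because the shared seed makes the 3 guides one family and the few differing bases are all that separates their reads. They are from RefSeq (GRCh38.p14), where 7 of 7 names matched, and each is written 5′ to 3′ with the seed, bases 2 to 8, in capitals.
hsa-miR-29a-3p: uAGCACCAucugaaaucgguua
hsa-miR-29b-3p: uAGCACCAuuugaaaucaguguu
hsa-miR-29c-3p: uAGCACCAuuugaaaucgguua
hsa-miR-29a-5p: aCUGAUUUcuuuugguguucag
hsa-miR-29b-1-5p: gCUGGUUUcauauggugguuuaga
hsa-miR-29b-2-5p: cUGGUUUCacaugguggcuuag
hsa-miR-29c-5p: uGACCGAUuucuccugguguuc

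The seed AGCACCA was common to the 3 guides, and 0 other mature names in the RefSeq table carried it. Counting positions from 1 at the 5′ end, miR-29a-3p differed from miR-29c-3p by C10U alone. From miR-29b-3p to miR-29c-3p the changes were A18G, G21U and U22A, and the longest run they share was 17 bases. A read of miR-29b-3p or miR-29c-3p that ends before base 18 therefore fits both names, and the sources used here do not give how such reads were divided. The 4 passenger arms had 4 different seeds. When miR-29b-2-5p was shifted by 1 base against miR-29b-1-5p, 20 of 22 bases were the same, and the differing ones were U11C and U19C.

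The 4 hairpins lie in 2 pairs, and their sequences are shown to place the arms, which are in capitals with the 5p arm first. All are on the minus strand in GRCh38.p14.
MIR29A, chr7:130876747-130876810: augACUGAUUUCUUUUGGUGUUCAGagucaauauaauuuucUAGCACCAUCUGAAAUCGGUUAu
MIR29B1, chr7:130877459-130877539: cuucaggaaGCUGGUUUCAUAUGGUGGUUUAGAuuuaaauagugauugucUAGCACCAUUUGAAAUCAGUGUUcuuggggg
MIR29B2, chr1:207802443-207802523: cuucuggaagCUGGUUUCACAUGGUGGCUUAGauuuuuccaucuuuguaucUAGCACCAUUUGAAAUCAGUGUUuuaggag
MIR29C, chr1:207801852-207801939: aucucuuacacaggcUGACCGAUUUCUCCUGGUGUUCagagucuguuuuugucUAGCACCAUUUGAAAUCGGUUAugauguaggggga

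MIR29A and MIR29B1 are 648 bases apart on chromosome 7, and MIR29C and MIR29B2 are 503 bases apart on chromosome 1. In GENCODE release 29 the chromosome 1 pair lies in exon 5 of a transcript of the non-coding gene MIR29B2CHG, on the same strand. On chromosome 7, MIR29B1 lies within exon 4 of a transcript of the non-coding gene LINC-PINT, whose edge MIR29A overlaps. Both chromosome 7 hairpins also lie wholly within the non-coding gene AC016831.6, on the same strand, and within LINC00513, on the opposite strand, in each case outside the annotated exons. The miR-29b-3p sequence is the same from both loci, so its counts cannot be assigned to a locus, whereas the other 6 names each belong to 1 locus.

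Total counts ran from 23.95 M to 25.79 M per library (M, 1000000), and known miRNAs took 46.2% to 65.5% of them. Levels below are CPM, counts per 1000000 of the known miRNA total after TMM scaling, which corrects for a few very abundant miRNAs. Control library 2 stood apart: miR-21-5p took 66.04% of its known miRNA counts, against 49.38% to 59.06% in the others, and its TMM factor was 0.761, against 0.986 to 1.11. Of the epithelial markers, 6 of 6 were detected, with a sum of 7743 to 10082 CPM over the 6 libraries. Most of this was miR-200a-3p, miR-429 and miR-200b-3p, with means of 4009, 2371 and 2230 CPM. MiR-200c-3p, miR-141-3p and miR-205-5p were low, at 48.3, 20.4 and 6.37 CPM. Fibroblast and smooth muscle markers summed to 43.8 to 68.3 CPM and muscle markers to 9.17 to 13.8 CPM. Endothelial markers, both miR-126 arms, summed to 1665 to 2293 CPM, and 0 of the marker names were at 0 in all 6 libraries. Summed by group, blood markers ran from 4.26 to 8.88 CPM in control libraries, against 7.55 to 20.2 CPM with PRMT1. Nearly all of this was miR-451a, with group means of 5.62 (control) and 11.6 CPM (PRMT1), and its groups overlapped after TMM. With library size as the only scaling, every PRMT1 library was above every control library for miR-451a, as for 6.89% of tested names. MiR-451a was the only 1 of the 5 blood markers to be tested (edgeR adjusted p = 0.741). The others averaged 0.0368 to 0.352 CPM over the 6 libraries. The part of blood markers in the results was not tested. All libraries came from 1 cell line, so these sums were not read as other cell types. In bulk counts, fewer cells holding a miRNA and less of it per cell cannot be told apart.

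The family was carried by its guides, and among these by miR-29a-3p. The order miR-29a-3p, miR-29b-3p, miR-29c-3p, miR-29b-1-5p held in all 6 libraries, and miR-29b-2-5p was lowest in all 6. The step from miR-29c-3p to miR-29b-1-5p was nearly absent in control library 1, with 2010 and 1996 counts, and was wider in the other 5. The passengers miR-29a-5p and miR-29c-5p changed places between libraries and did not differ beyond their spread. All 7 arms are 22 to 24 bases long, so length hardly affects this order of levels. The order of read counts is not a measured order of molecules, since ligation and amplification can favour some sequences.

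Guide arms made up 97.7% ± 0.773 (SD, n = 3) of all miR-29 counts in control and 98.3% ± 0.493 in PRMT1 libraries. Within the guides, miR-29a-3p held 91.0% ± 0.545 in control and 91.2% ± 0.860 in PRMT1 libraries, and miR-29b-3p held 6.61% ± 0.588 and 6.16% ± 0.824. The share of miR-29c-3p was 2.42%, 2.40% and 2.27% in control libraries 1 to 3 and 2.76%, 2.62% and 2.48% in PRMT1 libraries 1 to 3. The groups did not overlap in these values, but the closest pair was not separable at this depth: the exact (Clopper-Pearson) 95% interval was 2.38% to 2.58% in PRMT1 library 3 and 2.32% to 2.53% in control library 1. No test was made, since a ratio of members chosen with results known gets none, and no share of other miRNAs was computed as a background for it. The intervals reached at most 0.105 percentage points to either side for miR-29c-3p and 0.194 for miR-29a-3p. They cover counting error only, as reads without molecular identifiers are not independent molecules.

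By locus, chromosome 7 supplied most of the counts that can be assigned. The names of chromosome 7 alone (miR-29a-3p, miR-29a-5p and miR-29b-1-5p) took 97.0%, 97.1% and 97.3% of such counts in control libraries 1 to 3 and 96.9%, 96.9% and 97.1% in PRMT1 libraries 1 to 3. The groups overlapped, and the means differed by -0.152 percentage points. These shares rested on miR-29a-3p, which gave 76096 of the 78407 chromosome 7 counts in control library 1. Its passenger miR-29a-5p and the chromosome 1 passenger miR-29c-5p were alike. Their means were 23.9 and 23.7 CPM in control and 24.7 and 25.1 CPM in PRMT1 libraries. Of the miR-29b passenger counts, the arm from chromosome 7, miR-29b-1-5p, held 94.6%, 95.5% and 97.1% in control libraries 1 to 3, against 97.4%, 97.5% and 97.6% in the PRMT1 libraries. The widest 95% interval of these passenger shares was 1.05 percentage points to either side. Control library 3 and the PRMT1 libraries were thus not separable at this depth, while control libraries 1 and 2 lay below the PRMT1 libraries. The interval of control library 2 (94.4% to 96.5%) overlapped that of control library 3 (96.0% to 97.9%).

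MiR-29a-3p, the main guide and a repressor of collagen messages, was at 5585, 9406 and 6056 CPM in control libraries 1 to 3. In PRMT1 libraries 1 to 3 it was at 12076, 9203 and 7715 CPM. The highest value was that of PRMT1 library 1, and the groups overlapped because control library 2 exceeded PRMT1 libraries 2 and 3. The log2 fold change of PRMT1 over control was 0.46 (SE 0.24, 95% interval -0.08 to 1.01), with an adjusted p of 0.741 in the quasi-likelihood test of edgeR. It ranked 13th to 22nd among all known miRNAs in the 6 libraries. Its fold change was 0.24 without PRMT1 library 1 and 0.71 without control library 2, with adjusted p at or above 0.447 over all alternatives.

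MiR-29c-3p, the guide that differs from miR-29a-3p by C10U, was at 148, 249 and 151 CPM in control libraries 1 to 3. In PRMT1 libraries 1 to 3 it was at 365, 267 and 208 CPM. As with miR-29a-3p, PRMT1 library 1 was highest and only control library 2 reached into the PRMT1 range. Its log2 fold change of 0.62 (SE 0.31, 95% interval -0.08 to 1.31, edgeR adjusted p = 0.741) was the largest of the 7 arms in the upward direction. Leaving out PRMT1 library 1 gave 0.34 and leaving out control library 2 gave 0.89, with adjusted p at or above 0.451 over all alternatives.

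MiR-29b-3p, whose extended 3′ end carries a signal known to bring it into the nucleus, was at 361, 723 and 462 CPM in control libraries 1 to 3. In PRMT1 libraries 1 to 3 it was at 770, 723 and 465 CPM. The groups overlapped widely, with low and high libraries in each. The log2 fold change was 0.34 (SE 0.31, 95% interval -0.35 to 1.04, edgeR adjusted p = 0.825), or 0.13 without control library 1 and 0.65 without control library 2. Leaving out PRMT1 library 1 gave 0.17, and adjusted p was at or above 0.583 over all alternatives.

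**Figure D1:**
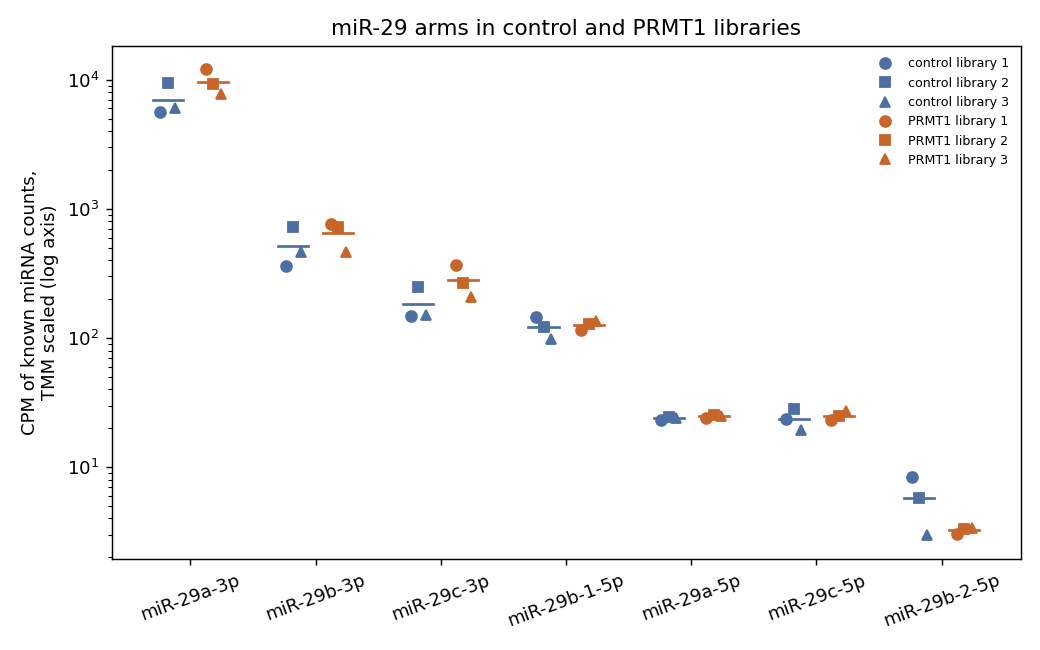
CPM of known miRNA counts after TMM scaling (log axis) for the 7 miR-29 arms, with 1 point per library, control in blue and PRMT1 in orange, and a line at each group mean. MiR-29a-3p lies far above every other arm, from 5585 to 12076 CPM, and the groups overlap for each arm.

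The passenger miR-29a-5p, the strand paired with miR-29a-3p in the hairpin, was at 23.1, 24.6 and 24.0 CPM in control and 24.1, 25.2 and 24.8 CPM in PRMT1 libraries 1 to 3. The 6 values lay close together after TMM, whereas with library size as the only scaling control library 2 was at 18.7 CPM and the other 5 at 24.4 to 26.8 CPM. Its log2 fold change was 0.05 (SE 0.22, 95% interval -0.44 to 0.54, edgeR adjusted p = 0.983).

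The partner of miR-29c-3p, miR-29c-5p, was at 23.8, 28.0 and 19.4 CPM in control and 23.0, 24.8 and 27.4 CPM in PRMT1 libraries 1 to 3. The PRMT1 values lay within the control range (log2 0.08, SE 0.24, 95% interval -0.47 to 0.62, edgeR adjusted p = 0.980). Unlike its guide, it was not highest in PRMT1 library 1.

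MiR-29b-1-5p, the passenger of the chromosome 7 copy of miR-29b, was at 146, 123 and 97.4 CPM in control and 115, 128 and 135 CPM in PRMT1 libraries 1 to 3. The PRMT1 values again lay within the control range (log2 0.05, SE 0.25, 95% interval -0.52 to 0.62, edgeR adjusted p = 0.983). The sign of this small difference was negative without control library 3, without PRMT1 library 2 or 3, with RLE or upper quartile scaling, with DESeq2 and with all RNA classes. That of miR-29a-5p was negative without control library 3 and with all RNA classes, and that of miR-29c-5p in the same cases and without PRMT1 library 3.

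The rarest arm, miR-29b-2-5p, was the passenger of the chromosome 1 copy of miR-29b and the only member with a negative log2 fold change. Control libraries 1 to 3 held 115, 72 and 38 counts of it and PRMT1 libraries 1 to 3 held 47, 40 and 40, which gave 8.44, 5.76 and 2.96 CPM and 3.06, 3.29 and 3.35 CPM. The PRMT1 libraries were close together, whereas the control libraries spread from below them to above them. The log2 fold change was -0.82 (SE 0.39, 95% interval -1.71 to 0.06, edgeR adjusted p = 0.741). Leaving out control library 1 gave -0.44 and leaving out control library 3 gave -1.20, with adjusted p at or above 0.410 over all alternatives.

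Over the known miRNAs tested, 0 of 668 (0%) passed an adjusted p of 0.05 with edgeR, and 0 of the 7 miR-29 arms did. At an unadjusted p under 0.05 there were 36 of 668 and 0 of 7. DESeq2 called 4 names and limma-voom 0, with 0 miR-29 arms among them. Of the 7 arms, 6 had a log2 fold change above 0, where 53.9% of tested names did, and the median was 0.08 against 0.04. Scaled on all RNA classes, the median of tested known names was -0.09, 39.9% lay above 0, and 3 of 7 arms did, the 3 guides. The guides share sequence and, in part, loci, so these are not 7 separate observations.

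**Figure D2:**
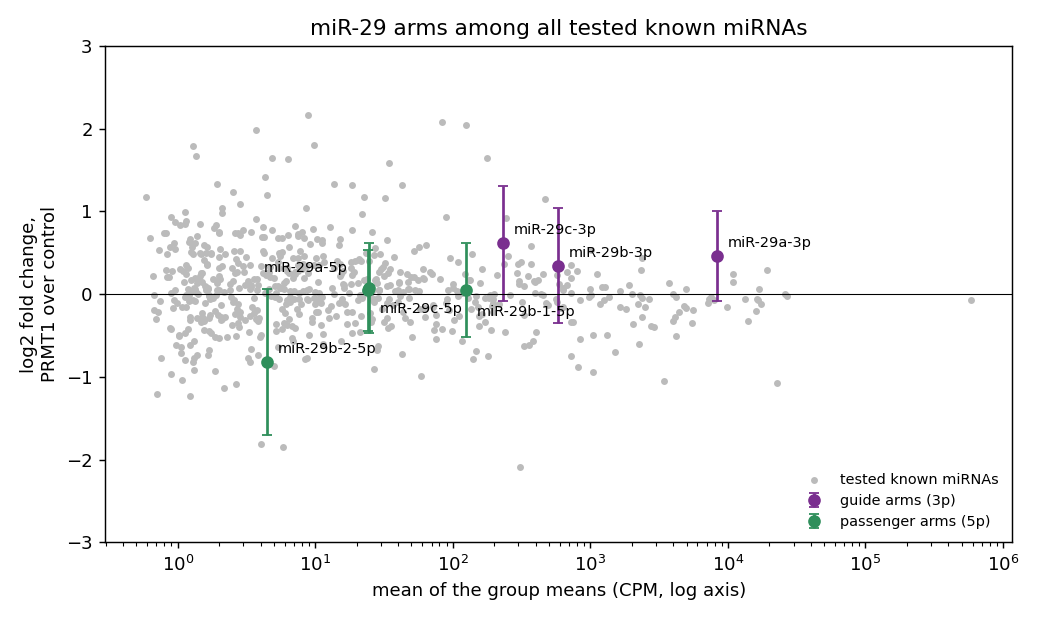
Log2 fold change of PRMT1 over control (vertical axis) against the mean of the group means in CPM (log axis) for the tested known miRNAs in grey, with guide arms in purple and passenger arms in green, and bars for 95% intervals. The bars of all 7 arms cross 0, and 3 grey points lie outside the vertical range of -3 to 3.

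Whether groups overlapped depended on the scaling of control library 2. After TMM, 0 of 7 arms had every PRMT1 library above every control library, as 5.39% of tested names had. With library size as the only scaling, 2 of 7 did, miR-29a-3p and miR-29c-3p, against 6.89% of tested names. On that scale miR-29a-3p was at 6139, 7157 and 6744 CPM in control and 12866, 9399 and 7604 CPM in PRMT1 libraries 1 to 3. MiR-29c-3p was at 162, 190 and 169 CPM in control and 388, 273 and 205 CPM in PRMT1 libraries on it. TMM raised control library 2 from 7157 to 9406 CPM for miR-29a-3p. That library also held 2.89% of its total counts in the mir-21 precursor family, against 0.224% to 0.345% in the others, and the part of this in the result was not tested.

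The summed guides were at 6094, 10378 and 6669 CPM in control and 13211, 10193 and 8388 CPM in PRMT1 libraries 1 to 3. Their means were 7714 ± 2326 and 10597 ± 2437 CPM (SD, n = 3 each), a log2 ratio of 0.46, and the groups overlapped. This ratio was 0.23 without PRMT1 library 1, 0.30 without control library 1, 0.32 without control library 3 and 0.71 without control library 2. As a share of known miRNA counts, with no TMM, the guides held 0.670%, 0.790% and 0.743% in control libraries 1 to 3, against 1.41%, 1.04% and 0.827% in PRMT1 libraries 1 to 3. On that scale the groups did not overlap, with means of 0.734% ± 0.0604 and 1.09% ± 0.294 (SD, n = 3 each). Of single tested names, 6.89% likewise had every PRMT1 library above every control library on it. The sum was mostly miR-29a-3p, which was among them, so it is not a separate observation. The summed passengers were at 176 ± 29.4 and 179 ± 12.8 CPM, a log2 ratio of 0.03, with PRMT1 library 1 the lowest of its group. No p-value is given for these sums, since their members were chosen with results known. In the alternative with guide arms summed, the guide sum was fitted with edgeR as a single name, and it did not pass the threshold. The passenger sum was not tested.

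PRMT1 library 1, the highest for all 3 guides, also differed in makeup. Known miRNAs took 60.0% of its total counts, against 46.2% and 50.6% in PRMT1 libraries 2 and 3. In control libraries 1 to 3 they took 50.6%, 65.5% and 48.1%, so control library 2 was higher still. Ribosomal RNA took 1.70% of it, against 2.37% to 4.17% in the other 5 libraries, and small nucleolar RNA 0.208%, against 0.378% to 0.474%. Whether this makeup bears on the guide levels was not tested.

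Reads that the tables place in the mir-29 precursor family of Rfam, a separate row from the mature names, gave a further reading of the family. Per 1000000 of all counts control libraries 1 to 3 were at 116.6, 150.3 and 143.0 and PRMT1 libraries 1 to 3 at 305.9, 133.3 and 172.3. PRMT1 library 1 was again highest, and PRMT1 library 2 lay within the control range. The means were 137 ± 17.7 and 204 ± 90.5 (SD, n = 3 each). Relative to the summed mature counts, this row stood at 3.37% ± 0.531 in control and 3.44% ± 0.661 in PRMT1 libraries.

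**Figure D3:**
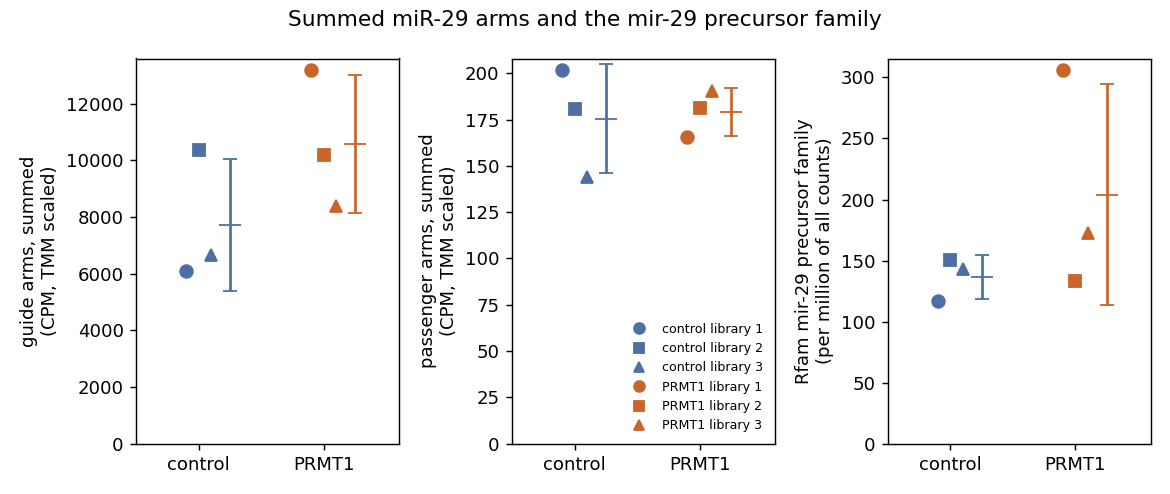
Summed guide arms and summed passenger arms (CPM after TMM) and the Rfam mir-29 precursor row (per 1000000 of all counts), with 1 point per library and the mean ± SD beside each group. PRMT1 library 1 is highest for the guides (13211 CPM) and the precursor row (305.9) but lowest of its group for the passengers.

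Counts of a guide over its own passenger do not depend on any scaling between libraries. MiR-29a-3p outnumbered miR-29a-5p by 242, 383 and 252 times in control and by 500, 365 and 312 times in PRMT1 libraries 1 to 3. On the log2 scale these ratios were 8.16 ± 0.367 and 8.59 ± 0.348 (SD, n = 3 each), with overlap through control library 2. MiR-29c-3p outnumbered miR-29c-5p by far less, 6.20, 8.89 and 7.78 times in control and 15.9, 10.8 and 7.57 times in PRMT1 libraries.

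The miR-29c log2 ratios were 2.92 ± 0.263 and 3.45 ± 0.534, also with overlap. MiR-29b-3p outnumbered its summed passengers by 2.33, 5.64 and 4.60 times in control and by 6.51, 5.51 and 3.36 times in PRMT1 libraries, with log2 ratios of 1.97 ± 0.667 and 2.30 ± 0.496. The log2 difference between groups was 0.43 for miR-29a, 0.33 for miR-29b and 0.53 for miR-29c. With 1 library left out, that of miR-29a ran from 0.24 (without PRMT1 library 1) to 0.64 (without control library 2). That of miR-29c ran from 0.26 (without PRMT1 library 1) to 0.79 (without PRMT1 library 3). That of miR-29b ran from -0.04 (without control library 1) to 0.61 (without PRMT1 library 3), and was 0.13 without PRMT1 library 1 and 0.59 without control library 2.

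**Figure D4:**
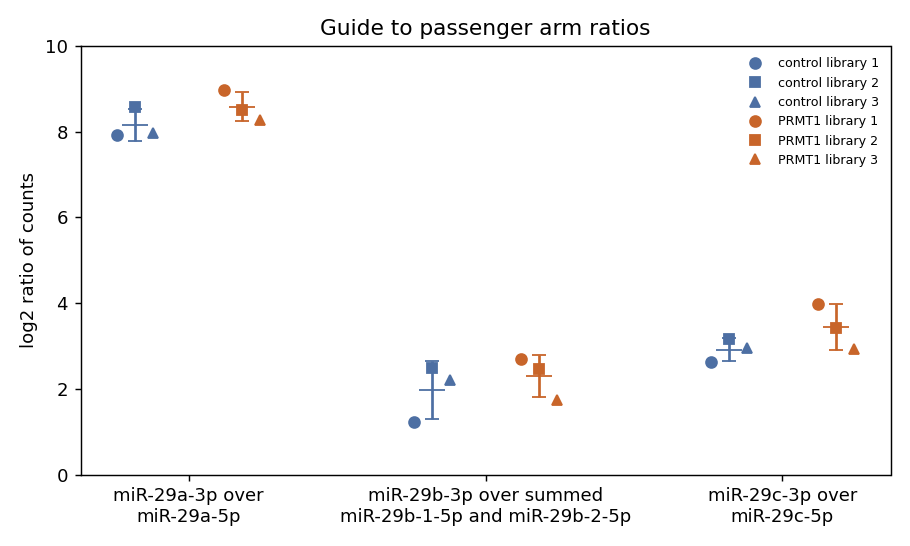
Log2 ratio of guide counts to passenger counts for miR-29a, miR-29b (over both passengers) and miR-29c, with 1 point per library and the mean ± SD of each group. The miR-29a ratio is near 8 to 9 and those of miR-29b and miR-29c lie between 1.22 and 3.99, with the groups overlapping in each.

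Likeness of pattern was measured as the SD, over the 6 libraries, of the log2 ratio of 2 names' counts, where a small SD means that they kept a constant ratio. This measure needs no scaling between libraries, and is a description. Against miR-29a-3p it was 0.10 for miR-29c-3p and 0.17 for miR-29b-3p, smaller than for any of the 154 other tested names of at least 100 CPM. The nearest of those were miR-32-5p at 0.21, miR-454-3p, miR-340-5p and miR-660-5p at 0.23 each, and miR-22-3p at 0.24. The same 5 names were nearest to miR-29c-3p, from 0.24 for miR-32-5p to 0.31 for miR-660-5p. The passengers were farther from miR-29a-3p than the guides, at 0.40 for miR-29c-5p and miR-29a-5p, 0.49 for miR-29b-1-5p and 0.88 for miR-29b-2-5p. Set among the 154 names, miR-29c-5p would rank 30th and miR-29a-5p 31st, so most of those names were farther still. These 2 passengers averaged 24.4 and 24.3 CPM and miR-29b-2-5p 4.48 CPM, under the 100 CPM asked of those names. The part of low counts in these SDs was not tested. The guides share much of their sequence, and miR-29a-3p differs from miR-29c-3p by C10U alone. The part of shared sequence in the small SDs between guides was not tested. The log2 fold change of miR-32-5p was 0.46, and those of the other 4 nearest names ran from 0.15 to 0.26.

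**Figure D5:**
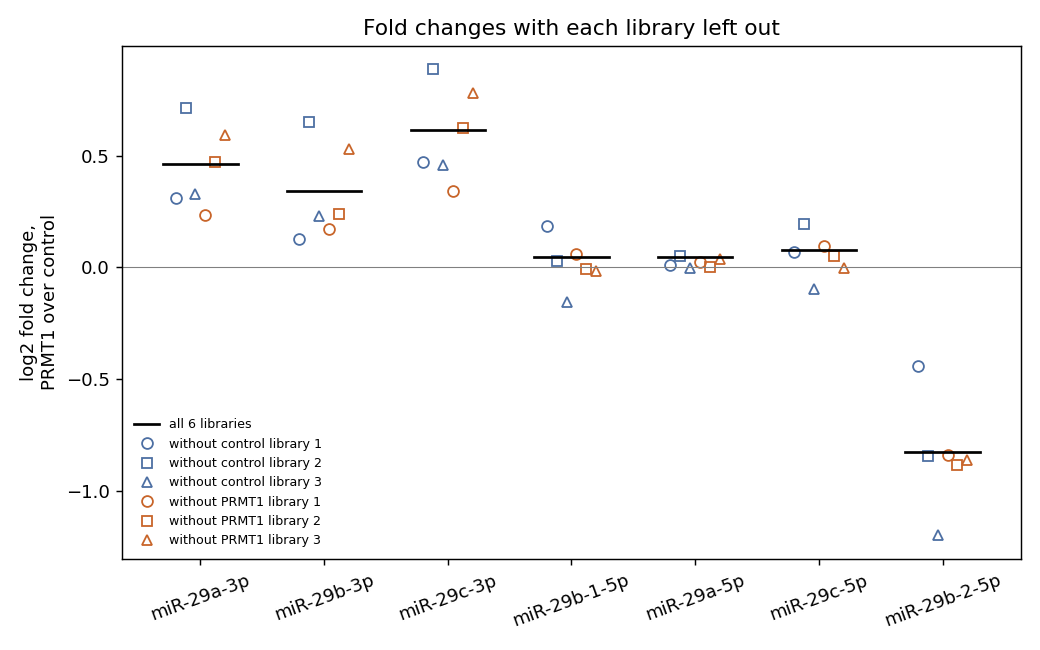
Log2 fold change of PRMT1 over control for each arm with 1 library left out at a time (open symbols) and with all 6 libraries (black line). The 3 guides stay above 0 in all 6 omissions, from 0.13 to 0.89, miR-29b-2-5p stays below 0, and the other 3 passengers fall on both sides of 0.

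Other miRNAs tied to fibrosis were set beside the family. Of 12 reported to restrain fibrosis, 12 were tested, 6 lay above and 6 below 0, and 0 passed, with a median log2 fold change of -0.00. Of 9 reported to promote fibrosis, 8 were tested, 2 lay above and 6 below 0, and 0 passed, with a median of -0.07. The 4 most abundant names of both lists were miR-21-5p (log2 -0.08, SE 0.25) and miR-34a-5p (log2 -0.03, SE 0.17), reported to promote fibrosis, and miR-26a-5p (log2 -0.06, SE 0.15) and let-7d-5p (log2 -0.28, SE 0.17), reported to restrain it.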

How the data were processed

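Per the series' design text, BGI sequenced the small RNA of the 6 BEAS-2B libraries (BGI-500) and filtered the reads. The submitters' processing notes name HISAT, Bowtie2, RSEM and GRCh37.p13 without roles. The tables hold whole-number read counts per small RNA, deposited without normalisation, and names absent from a table were taken as 0. The TPM values deposited by the authors equal counts per 1000000 of the library total within 0.005, with no length term, and served only for that check. Per the labels' protocols, messenger RNA was enriched or ribosomal RNA removed, although the tables hold small RNA.

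Known mature miRNAs (1727 names) were filtered with filterByExpr, leaving 668 that held 99.98% of their counts, scaled with TMM and tested in R 4.3.3 with edgeR 4.0.16 (quasi-likelihood, robust), with p-values adjusted by Benjamini-Hochberg over all 668. SEs are the log2 fold change over the root of F. DESeq2 1.42.0 and limma 3.58.1 were alternatives, with other scalings, other filters, a replicate block, all RNA classes, miR-21-5p omitted, guide arms summed and each library left out. The test was tried on simulated data in which the changes put in were larger than those of the miR-29 arms. Its power for differences as small as theirs was not measured. Replicates were not copies, since no 2 libraries had a chi-square per degree of freedom under 300.4.

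Members and lists were chosen with earlier results of these data known. Apart from cell type markers, named miRNAs are the 7 arms and the 4 most abundant of both fibrosis lists together. They also include the 5 names of at least 100 CPM nearest in pattern to miR-29a-3p and to miR-29c-3p. Hairpin positions are on GRCh38.p14, which is not the submitters' build.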

Additional observations from a re-analysis of the deposited data

How the results depend on the processing

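No miR-29 arm passed the threshold under any of the 17 alternatives run. In 1 of these the summed guides took the place of the 3 guide arms, and the sum did not pass either. Over all known miRNAs the count past it was 0 with edgeR, 4 with DESeq2, 9 without the filter on low counts and 1 with the replicate block, and 0 to 1 with a library left out, the 1 being without PRMT1 library 1; the cause was not tested. Deviations from the group mean correlated at -0.17, 0.16 and -0.16 between same-numbered libraries, and at -0.12 to 0.27 between differently numbered ones. These values gave no sign of pairing by number. They cannot exclude it, since deviations from a mean of 3 libraries are tied together. With the replicate block the log2 fold change of miR-29a-3p was 0.48 and that of miR-29c-3p 0.62, and the block changed no call of a miR-29 arm. The guides kept their direction in each alternative that gave a value, as did miR-29b-2-5p, which the filter of at least 10 CPM in 3 libraries left out. The other passengers, all near 0, reversed. With all RNA classes miR-29a-5p was at -0.0834, miR-29b-1-5p at -0.0927 and miR-29c-5p at -0.0656, where the median of known names moved to -0.09. MiR-29b-1-5p was at -0.00546 with RLE scaling, -0.0106 with upper quartile scaling and -0.00135 with DESeq2. With 1 library left out, miR-29a-5p ran from -0.000998 to 0.05001, miR-29b-1-5p from -0.15 to 0.19 and miR-29c-5p from -0.10 to 0.19. Counts of 38 to 115 limit miR-29b-2-5p, and 3 libraries per group limit every arm.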
